A study of Schizosaccharomyces pombe with 3 samples.

Results

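The nuclear transfer RNA (tRNA) genes of fission yeast (Schizosaccharomyces pombe) are described here in 3 RNA-seq libraries. Members were taken as the rows of the deposited gene table whose identifier contains TRNA and that lie on chromosome I, II or III, and this gave 171 of the 7049 rows, namely 56 on chromosome I, 68 on II and 47 on III. The letter after SP in an identifier gives the chromosome (A for I, B for II, C for III), and the 3 letters after TRNA give the amino acid. All 171 rows matched a gene of the RefSeq annotation (assembly ASM294v3) with the same coordinates. An anticodon loop that decodes the amino acid in the identifier was found in 170 of them. The exception, SPBTRNAASP.05, holds the reverse complement of a tRNA-Asp gene on its annotated strand.

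tRNAs carry amino acids to the ribosome and read codons through their anticodon. Their genes are transcribed by RNA polymerase III from promoter elements inside the gene, the A box and the B box, and end at a short run of T. The precursor is trimmed at both ends, given a 3′ CCA, spliced where it has an intron, modified and exported, and most tRNAs are encoded by several identical genes spread over the genome. Fission yeast centromeres are also known to carry clusters of tRNA genes inside repeated DNA.

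The study asked how a slowly elongating RNA polymerase II affects gene expression, by comparing a mutant of its largest subunit Rpb1 with the parent strain. All strains were h-, carried his3-D1, ura4-D18, leu1-32 and ade6-M216, and lacked both fex1 and fex2, and the wild type carried no further change. Slow #1 and slow #2 carried in addition the rpb1 substitution N494D and are independent clones, each with 1 library. Rpb1 is a subunit of RNA polymerase II and not of RNA polymerase III. Cells of all groups grew to mid-log phase at 30°C in EMM with adenine, histidine, leucine and uracil, and total RNA was depleted of ribosomal RNA before stranded, paired-end sequencing with reads of 100 bases.

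The libraries held 31803128 (wild type), 40746838 (slow #1) and 30674459 (slow #2) counted fragments. Levels are given as CPM, counts scaled to a common library size with the TMM factors of edgeR, and the SD is over the 2 slow clones. Slow was compared with wild type by the quasi-likelihood test of edgeR over all rows that passed its filter on low counts, and a row was called at a Benjamini-Hochberg adjusted p under 0.01 with a change above 1.5-fold. The wild type has 1 library, so the test takes the spread between the 2 clones for the wild type as well and has 1 residual degree of freedom, and a p-value then covers only the spread between these libraries. A ratio of 1 clone to the wild type has a 95% interval for counting error only and no replicate check. The rpb1 gene was read at 792, 788 and 837 CPM in the wild type, slow #1 and slow #2, which does not check the substitution, since a count per gene does not show a base change. The M-factor genes, made by h- cells, were read at 45.2, 298 and 367 CPM (mfm1), 173, 352 and 297 (mfm2) and 2.84, 18.3 and 19.3 (mfm3). The P-cell genes were read at 34.2, 41.6 and 44.2 CPM (map2) and 23.9, 19.5 and 17.5 (map3). In the wild type mfm3 lay below both P-cell genes, so these genes do not check the mating type cleanly.

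The sequences below are those on which the results turn, spliced, 5′ to 3′, in DNA letters from RefSeq ASM294v3, with the anticodon in capitals. The first 6 are the genes with the highest mean level, and each is a copy of a sequence that occurs between 1 and 7 times among the rows.
SPCTRNASER.09: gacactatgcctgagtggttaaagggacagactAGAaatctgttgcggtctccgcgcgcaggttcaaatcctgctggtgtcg
SPBTRNAPRO.07: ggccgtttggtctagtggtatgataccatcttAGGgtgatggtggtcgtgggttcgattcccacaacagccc
SPATRNACYS.01: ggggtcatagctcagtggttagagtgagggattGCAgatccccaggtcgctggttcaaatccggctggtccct
SPATRNAPRO.02: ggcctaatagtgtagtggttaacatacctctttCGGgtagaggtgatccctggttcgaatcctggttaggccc
SPBTRNALEU.10: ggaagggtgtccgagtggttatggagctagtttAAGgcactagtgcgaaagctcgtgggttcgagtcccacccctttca
SPCTRNAPHE.04: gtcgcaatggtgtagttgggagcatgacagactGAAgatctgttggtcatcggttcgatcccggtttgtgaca
The next 4 are shown for their contrasts between the libraries. They are the gene with the highest fitted change among those with a wild-type count, the main glutamate gene, a cysteine gene that differs by 2 bases from SPATRNACYS.01, and the most counted of 9 identical alanine genes.
SPBTRNATRP.02: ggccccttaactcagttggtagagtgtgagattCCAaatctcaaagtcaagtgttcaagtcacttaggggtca
SPBTRNAGLU.05: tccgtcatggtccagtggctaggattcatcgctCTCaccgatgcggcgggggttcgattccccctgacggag
SPATRNACYS.02: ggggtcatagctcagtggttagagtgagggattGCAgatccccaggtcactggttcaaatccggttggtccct
SPCTRNAALA.12: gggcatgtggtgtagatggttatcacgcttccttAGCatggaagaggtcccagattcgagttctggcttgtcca
The first of these 10 genes lies at chrIII:1066628-1066709 on the forward strand and the second at chrII:2939715-2939786 on the forward strand. SPATRNACYS.01 lies at chrI:1421149-1421221 (+), SPATRNAPRO.02 at chrI:1314924-1315020 (-) with an intron of 24 bases that is left out above, SPBTRNALEU.10 at chrII:3914043-3914121 (+), SPCTRNAPHE.04 at chrIII:331228-331300 (-), SPBTRNATRP.02 at chrII:717076-717148 (+), SPBTRNAGLU.05 at chrII:820491-820562 (+), SPATRNACYS.02 at chrI:2510538-2510610 (+) and SPCTRNAALA.12 at chrIII:1065044-1065117 (-).

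Taken as 1 class, nuclear tRNA genes were read at a higher level in each of the slow clones. Their 171 rows summed to 594 (wild type), 1979 (slow #1) and 2074 (slow #2) counts, or 18.6, 47.8 and 69.1 CPM, with counting intervals of 17.1 to 20.1, 45.7 to 49.95 and 66.2 to 72.2. Both clones lay above the wild type, slow #1 at 2.58 times (2.35 to 2.83) and slow #2 at 3.72 times (3.40 to 4.09) its level. The mean of the clones was 58.5 ± 15.1 CPM (SD, n = 2). Fitted as 1 row in place of the 171, the sum gave a fitted log2 difference of 1.66 with a standard error (SE) of 0.257, or 3.15-fold. Its edgeR adjusted p was 0.0280 over 6369 rows, which does not pass 0.01. With library totals alone in place of TMM factors, the edgeR adjusted p was 5.01e-05 at a log2 difference of 1.64. That scaling also raised the share of all rows of the gene table called higher, from 0.312% to 5.91%. The clones differed from each other too, slow #2 being at 1.45 times (1.36 to 1.54) the level of slow #1. These counts are a small fraction of each library, and the gene models, with a median length of 73 bases, are shorter than 1 read of 100 bases. A count per gene does not separate mature tRNA from precursors, and more tRNA and a more complete capture of it cannot be told apart here.

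Summed by amino acid, most tRNA families followed the total. The rows carry 20 amino acid codes, of which 18 had 10 or more counts in every library. Of these 18 sums, 17 were above the wild type in both clones and 1, glutamate, was below it in both. Of all rows tested, 42.7% were above and 42.6% below in both clones. The counting interval of the ratio to the wild type lay above 1 in both clones for 14 of them. None of the 18 was called by edgeR at an adjusted p under 0.01, where 0.172% of the rows of that table were called higher and 0.297% lower. At an adjusted p under 0.05 with the same fold limit 7 sums were called higher (6.28% of the table) and 0 lower (5.28%), at p under 0.05 before adjustment 12 were higher (17.4%) and 0 lower (17.6%), and DESeq2 called 5 higher at 0.01 (4.87%) and 0 lower (3.54%).

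**Figure D1:**
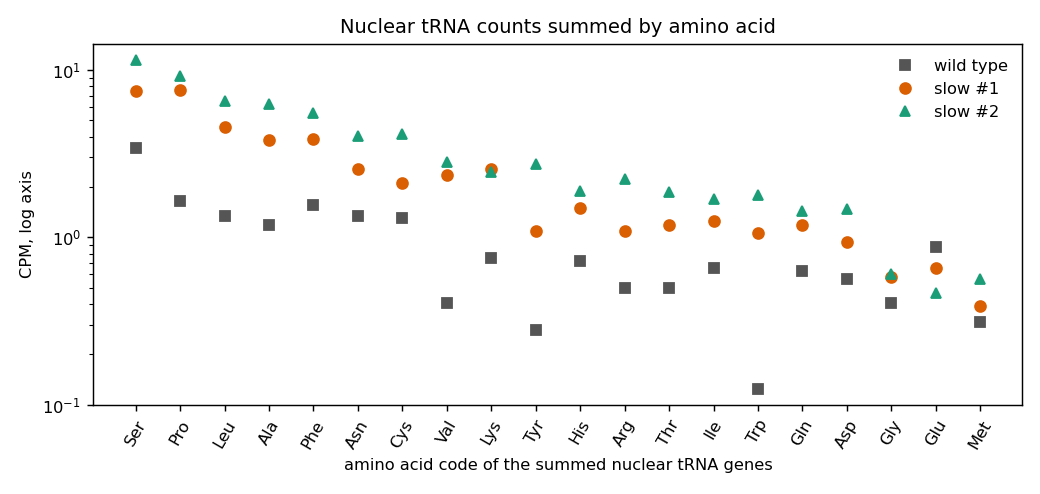
Level of the nuclear tRNA genes summed by amino acid code (x axis, ordered by the mean of the clones) in CPM on a log axis, with a square for the wild type, a circle for slow #1 and a triangle for slow #2. Both clones lie above the wild type at every code except glutamate, where the wild type is at 0.875 CPM and the clones are at 0.652 and 0.467.

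Proline tRNAs had the smallest adjusted p. Their 9 genes summed to 53, 316 and 276 counts in the wild type, slow #1 and slow #2, or 1.66, 7.63 and 9.20 CPM, and the clones lay at 4.61 times (3.44 to 6.29) and 5.55 times (4.13 to 7.60) the wild type. Fitted together, the clones differed from the wild type by 2.34 on the log2 scale (SE 0.290, edgeR adjusted p = 0.0141, 1.39e-06 from DESeq2). Valine tRNAs had the highest ratios of the 18 sums. They had 13 wild-type counts against 98 (slow #1) and 84 (slow #2), at 5.83 times (3.25 to 11.3) and 6.89 times (3.82 to 13.5), with a log2 fold change of 2.65 (SE 0.426, edgeR adjusted p = 0.0226 and 0.00378 from DESeq2). Because the wild-type valine sum is only 13 counts, its intervals are wide and overlap those of proline.

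Leucine, alanine, phenylalanine, serine and lysine made up the rest of the 7 sums under 0.05. The leucine sum was 43, 188 and 195 counts (log2 fold change 2.03, edgeR adjusted p = 0.0272, 0.000967 from DESeq2), and the alanine sum 38, 157 and 188 (2.07, 0.0354 and 0.00200). In both, the slow clones were more than 3 times as high as the wild type, with slow #2 the higher one. The serine sum, which held the most counts in the wild type, was 110, 309 and 342 (1.45, 0.0438 and 0.00412), the phenylalanine sum 50, 159 and 166 (1.58, 0.0438 and 0.0198) and the lysine sum 24, 106 and 74 (1.74, 0.0351 and 0.0556). For lysine the clones were at about the same level, 2.56 and 2.47 CPM.

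The other sums did not pass an adjusted p of 0.05. Their counts in the wild type, slow #1 and slow #2 were 43, 106 and 121 for asparagine, 42, 88 and 125 for cysteine, 23, 62 and 57 for histidine, and 21, 52 and 51 for isoleucine. They were 20, 49 and 43 for glutamine, 16, 45 and 67 for arginine and 16, 49 and 56 for threonine. For these 7 the intervals lay above 1 in both clones, with log2 fold changes from 1.05 (glutamine) to 1.69 (arginine). For aspartate (18, 39 and 44 counts), glycine (13, 24 and 18) and methionine (10, 16 and 17) at least 1 clone's interval included 1, and a difference was not detectable there at this depth in that clone. The glutamate sum was 28, 27 and 14 counts, at 0.745 times (0.423 to 1.31) and 0.533 times (0.259 to 1.05) the wild type. Its intervals also include 1, with a log2 fold change of -0.62 (SE 0.480, edgeR adjusted p = 0.402). No test of glutamate against the other amino acids was made, but its upper bound of 1.05 in slow #2 lies under the lower bounds of all codes in that clone other than glycine (0.684) and methionine (0.784).

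The remaining codes, tryptophan and tyrosine, had fewer than 10 counts in the wild type and were left out of the ratios. Tryptophan tRNAs, from 3 genes, had 4, 44 and 54 counts, and tyrosine tRNAs, from 4 genes, had 9, 45 and 82. Both sums were higher in each clone than in the wild type.

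**Figure D2:**
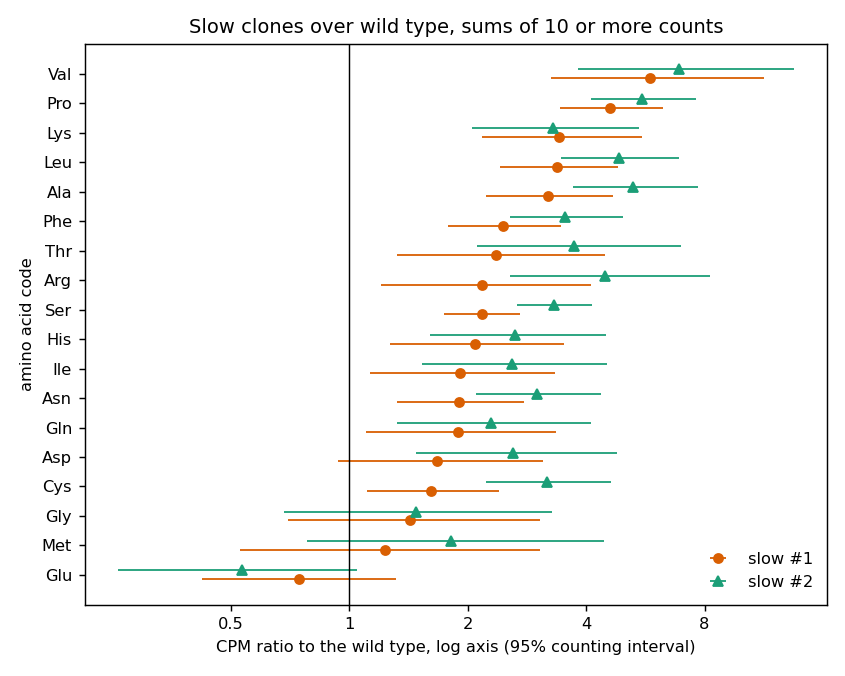
Ratio of each slow clone to the wild type (x axis, log scale) for the 18 amino acid sums of 10 or more counts in every library (y axis), with 95% counting intervals as bars, circles for slow #1 and triangles for slow #2. Ratios run from 0.745 (glutamate) to 5.83 (valine) in slow #1 and from 0.533 to 6.89 in slow #2, and the line marks equality.

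The clones did not have the same levels. The median ratio over the 18 sums was 2.13 in slow #1 and 3.23 in slow #2. For 9 of the 18 sums the interval of slow #2 over slow #1 lay above 1, and for 0 of them below 1. The widest of these gaps were arginine at 2.05 times (1.39 to 3.07) and cysteine at 1.96 times (1.48 to 2.60). Lysine, at 0.963 times (0.706 to 1.31), and glycine, at 1.03 times (0.529 to 1.99), were close to even. With 1 library per clone, a difference between clones and one between library preparations cannot be told apart.

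Isoacceptors are the tRNAs for 1 amino acid with different anticodons, and they were also summed apart. The anticodons gave 45 sums, of which 18 had 10 or more counts in every library, 17 of these above the wild type in both clones and 1 (glutamate, anticodon CUC) below it in both. No anticodon sum was called by edgeR (0.234% of the table with anticodon sums was called higher and 0.328% lower). Of the 18, 8 were higher at an adjusted p under 0.05 (6.45% of the table) and 0 lower (5.38%), 13 were higher at p under 0.05 before adjustment (17.5%) and 0 lower (17.8%), and DESeq2 called 3 higher (4.91%) and 0 lower (3.6%). The proline anticodon AGG, from 6 identical genes, had 38, 202 and 196 counts, and CGG, from the single gene SPATRNAPRO.02, had 15, 114 and 80. Both proline isoacceptors were thus higher in the clones, while the third, UGG, had 0 counts in every library. For isoleucine, the anticodon AAU had 9, 43 and 37 counts but the single gene for UAU, SPATRNAILE.02, had 12, 9 and 14, a log2 fold change of -0.19 (adjusted p = 0.870 from edgeR). For lysine, CUU had 18, 98 and 57 counts and UUU 6, 8 and 17. Slow #1 was the higher clone for CUU and slow #2 for UUU. The difference between isoacceptors was not tested. Leucine tRNAs with the anticodons CAA and UAG had 0 counts in all libraries, which with the 0 of proline UGG leaves 3 anticodons unread.

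At the level of genes, counts were low and a few genes held most of them. Of the 171 rows, 120 had a count in any library and 51 had none. Among the 120, both clones were above the wild type in CPM for 69, both below for 17, and the clones were split for 34. Of all rows with any count, 42.1% were above and 42.1% below in both clones. The filter of edgeR left 50 tRNA genes in the test, and 29 of these had fewer than 10 wild-type counts, so that they passed through the slow libraries. For this reason the tested genes are described and not counted as support. None of the 50 was called at an adjusted p under 0.01, where 0.312% of the 6418 rows tested were called higher and 0.390% lower. At an adjusted p under 0.05, 12 were higher (6.79% of all rows) and 0 lower (5.59%). At p under 0.05 before adjustment, 25 were higher (17.5%) and 0 lower (17.9%). DESeq2 called 0 lower (3.56%) and 4 higher (4.84%) at 0.01, namely SPATRNAPRO.02, SPBTRNALEU.10, SPBTRNAPRO.04 and SPCTRNAALA.12. The count of calls depends on the scaling: with library totals alone in place of TMM factors, edgeR called 10 genes and 7 amino acid sums higher at 0.01. The share of all rows called higher grew as well, to 5.91% in the gene table and 5.67% in the table with amino acid sums.

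The 20 genes with the highest mean level held 64.7% of all nuclear tRNA counts, with wild-type counts from 2 to 31. All 20 were above the wild type in both clones, but the clones make up 2 of the 3 values in the mean that ranked them, which favors genes high in the clones. The serine gene SPCTRNASER.09 was read at 31, 117 and 127 counts in the wild type, slow #1 and slow #2 (log2 fold change 1.85, SE 0.418, edgeR adjusted p = 0.0363). SPBTRNAPRO.07, a proline gene with anticodon AGG, was read at 28, 116 and 113 counts (1.89, 0.393, 0.0300). In both, the lower clone was at nearly 3 times the wild type or above it. The proline gene with anticodon CGG, SPATRNAPRO.02, had 15, 114 and 80 counts and the smallest adjusted p of the tRNA genes, 0.0181 from edgeR with a log2 fold change of 2.52 (SE 0.406). Its clones were at 2.75 and 2.67 CPM, the wild type at 0.469.

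Several genes had few wild-type counts and many in the clones. SPBTRNALEU.10 had 13, 77 and 107 counts (log2 fold change 2.71, edgeR adjusted p = 0.0359), SPBTRNAPRO.04 had 6, 68 and 66 (3.32, 0.0209) and SPCTRNAALA.12 had 5, 54 and 62 (3.38, 0.0270). SPATRNAVAL.04 had 7, 58 and 46 (2.72, 0.0274), SPBTRNALEU.05 had 11, 80 and 54 (2.43, 0.0259) and SPCTRNALYS.12 had 4, 37 and 31 (2.90, 0.0387). The tryptophan gene SPBTRNATRP.02 had 2, 40 and 48 counts, with a fitted log2 fold change of 4.26 (SE 0.852, adjusted p = 0.0278) that leans on 2 wild-type counts. Other genes of the 20 did not pass an adjusted p of 0.05. Among them were SPATRNACYS.01 with 31, 83 and 124 counts, SPCTRNAPHE.04 with 28, 73 and 91, SPATRNASER.03 with 26, 62 and 84 and SPCTRNAASN.05 with 20, 66 and 63. SPATRNAALA.06, with 16, 40 and 80 counts, and SPATRNATYR.01, with 9, 39 and 73, were much higher in slow #2 than in slow #1, and their SEs of 0.756 and 0.813 are correspondingly large. The rest of the 20 were SPCTRNAHIS.03 (17, 52 and 46), SPCTRNAPHE.05 (17, 54 and 37), SPBTRNAASP.04 (14, 29 and 37) and SPBTRNAASN.03 (14, 28 and 36).

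**Figure D3:**
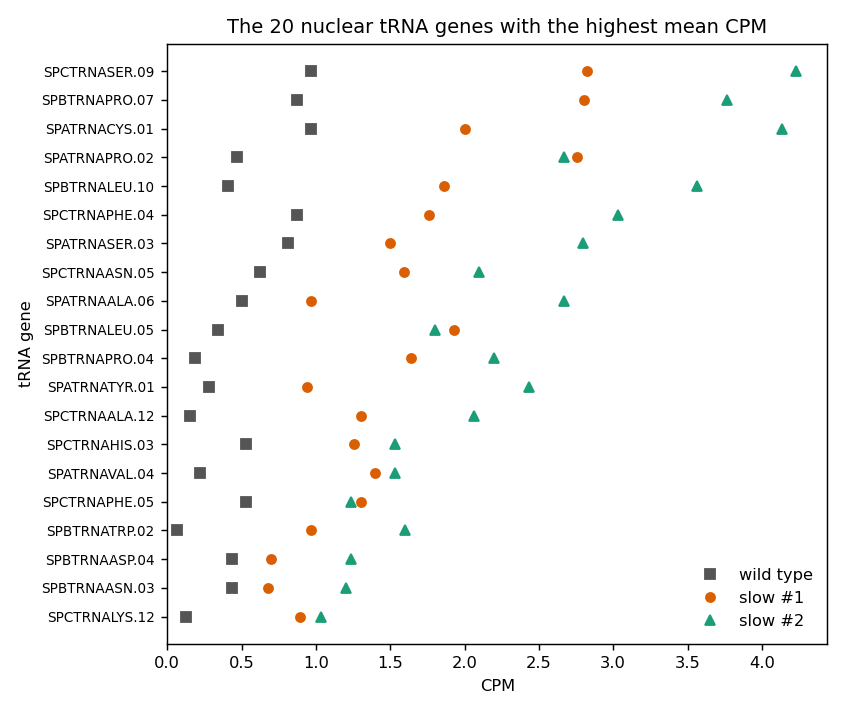
Level in CPM (x axis) of the 20 nuclear tRNA genes with the highest mean CPM (y axis, highest at the top), with a square for the wild type, a circle for slow #1 and a triangle for slow #2. Every square lies to the left of both other symbols, with wild-type counts from 2 to 31.

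Outside these 20, some tested genes went the other way or differed between the clones. SPBTRNAGLU.05, the gene behind most of the glutamate sum, had 27, 25 and 9 counts (log2 fold change -0.85, SE 0.578, edgeR adjusted p = 0.337). SPATRNALEU.02 had 10, 6 and 2 counts (-1.46, adjusted p = 0.287) and SPATRNACYS.02 had 10, 5 and 0 (-2.12, adjusted p = 0.251). They were the 3 tested genes below the wild type in both clones, none of them past a threshold. Of the other tested genes, 44 were above the wild type in both clones (42.7% of all rows tested were above and 42.6% below) and 3 were split, SPATRNAMET.01, SPATRNAILE.02 and SPATRNASER.02. The 44 are described and not counted as support. Of the 50 tested genes, 29 had fewer than 10 wild-type counts and passed the filter through the slow libraries, which favors genes above the wild type. Slow #2 was at 0.386 times slow #1 for SPATRNALYS.04 (7, 50 and 14 counts), and for SPATRNASER.04 (16, 38 and 18 counts) at 0.654 times with an interval of 0.351 to 1.17.

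Copies of 1 tRNA sequence were read at very different levels. As annotated, the 171 rows hold 64 distinct spliced sequences. These include SPBTRNAASP.05, which holds a reverse complement. They also include SPBTRNALYS.07 and SPBTRNASER.06, whose gene sequences are identical to other rows and whose annotated introns differ in length. With introns included, 133 rows fall into 31 families of 2 or more genes of identical sequence, up to 9 genes in a family. In the 29 families with counts, the most counted copy held a median of 87.5% of the family's counts. Among the 6 copies of the proline AGG sequence, SPBTRNAPRO.07 held 58.9% of the counts, SPBTRNAPRO.04 was next and 2 copies had none. The 4 copies with counts were above the wild type in both clones. Of the 9 alanine AGC genes, SPCTRNAALA.12 held 66.1%, SPBTRNAALA.07 had 10, 29 and 22 counts, and 6 genes had no count. All 7 serine AGA genes had counts, of which SPCTRNASER.09 held 60.2%, and 4 of the 7 were above the wild type in both clones. Identical genes can be told apart only by reads that reach into their flanks, so these shares depend on how such reads were placed.

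**Figure D4:**
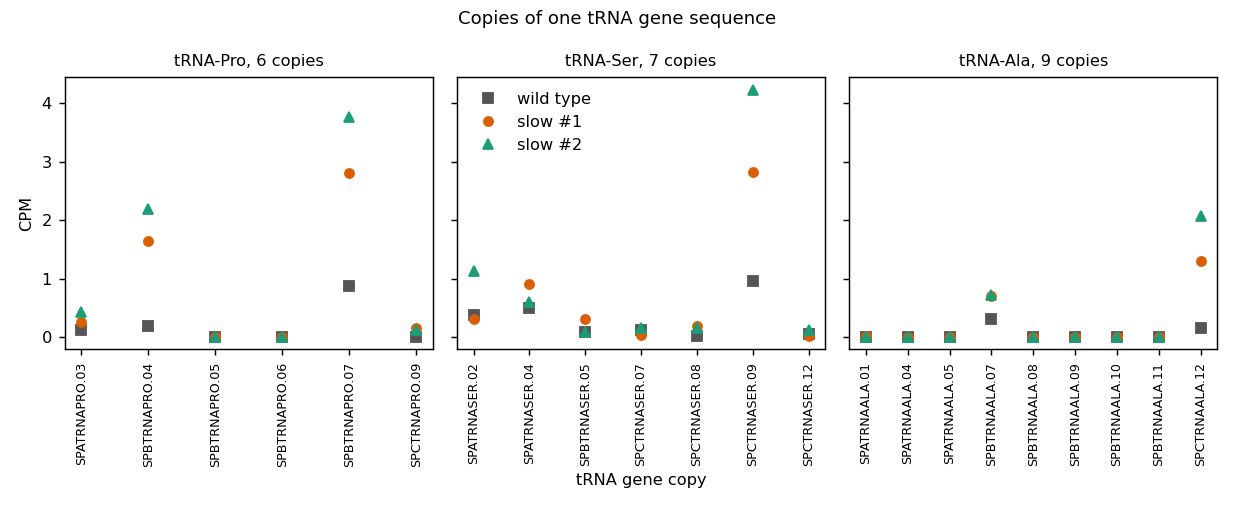
Level in CPM (y axis) of each copy (x axis) of 3 tRNA gene sequences, with 6 proline, 7 serine and 9 alanine genes of identical sequence, in the wild type (squares), slow #1 (circles) and slow #2 (triangles). In each family 1 copy holds between 58.9% and 66.1% of the counts and lies well above the wild type in both clones.

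A pair of leucine genes with the anticodon UAA shows the contrast between genes of the same product. SPBTRNALEU.05 (chrII:1402444-1402541, reverse strand) and SPATRNALEU.02 (chrI:2802761-2802858, reverse strand) give the same spliced tRNA, with 0 differences, and differ only in an intron of 16 bases after base 38, shown here in capitals.
SPBTRNALEU.05: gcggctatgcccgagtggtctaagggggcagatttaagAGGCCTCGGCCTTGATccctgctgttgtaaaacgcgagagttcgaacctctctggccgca
SPATRNALEU.02: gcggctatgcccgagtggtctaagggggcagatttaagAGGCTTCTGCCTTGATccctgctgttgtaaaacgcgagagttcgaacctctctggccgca
The first was read at 11, 80 and 54 counts and the second at 10, 6 and 2 in the wild type, slow #1 and slow #2. The wild-type counts were thus almost equal, while the first gene was higher in both clones and the second was lower in both. For the first gene the deposited table counts both exons without the intron, and for the second the whole gene, so their counted lengths differ. A similar contrast was seen among the cysteine genes printed above. SPATRNACYS.02 differs from SPATRNACYS.01 by G49A and C65T, counted from 1 at the 5′ end with the base of SPATRNACYS.01 first, and was read at 10, 5 and 0 counts against 31, 83 and 124. SPATRNACYS.03, identical to SPATRNACYS.01, had 1, 0 and 1. These pairs were chosen after their values were seen and were not tested.

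Most genes without any count were repeated together with their surroundings. When each gene was extended by 50 bases on both sides, 39 rows still had a second copy of the same sequence, and 35 of them had no count. The 39 rows together had 3, 0 and 3 counts. Of the 16 other rows without counts, 6 overlap another row of the table on the same strand, and these were all the tRNA rows with such an overlap. All 6 identical isoleucine AAU genes and all 4 leucine CAA genes are repeated with their flanks and had no count. For such genes a count of 0 does not show that the RNA is absent, since reads that fit several copies equally well may not have been counted.

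The summed counts were also compared between groups of genes. The 37 genes whose sequence occurs once had 149, 454 and 509 counts, at 2.36 times (1.95 to 2.85) and 3.64 times (3.03 to 4.40) the wild type. The 95 genes whose sequence is repeated but unique with its flanks had 442, 1525 and 1562, at 2.67 and 3.77 times. The remaining 39, repeated with their flanks, had too few counts (3, 0 and 3) for a comparison. With the unique genes alone as the sum, the log2 fold change was 1.58 (adjusted p = 0.0429 from edgeR), and without the most counted gene it was 1.64 (0.0288). The 44 genes with an intron in RefSeq had 145, 581 and 584 counts (3.10 and 4.30 times), the 127 without an intron 449, 1398 and 1490 (2.41 and 3.54 times). By chromosome the ratios were 2.39 and 3.62 on I, 2.72 and 3.87 on II, and 2.68 and 3.72 on III. The 63 genes within 1000 bases of another tRNA gene were at 2.39 and 3.63 times the wild type and the other 108 at 2.62 and 3.75 times. The counting intervals of the groups with counts overlap in every one of these comparisons, also for genes with an intron against those without, at 2.58 to 3.74 against 2.16 to 2.68 in slow #1 and 3.58 to 5.19 against 3.18 to 3.94 in slow #2.

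In S. pombe some serine tRNAs are known to be made as 1 precursor with the initiator methionine tRNA, and 3 such pairs lie 7 bases apart on the same strand. SPATRNASER.03 was read at 26, 62 and 84 counts and its partner SPATRNAMET.03 at 0, 1 and 0. SPCTRNASER.11 was read at 7, 16 and 15 and SPCTRNAMET.07 at 0, 1 and 2. In the third pair SPATRNASER.01 had 4, 12 and 12 counts and SPATRNAMET.01 had 8, 14 and 6. In each pair the serine gene was above the wild type in both clones, while no methionine gene other than SPATRNAMET.01 reached 10 counts in any of these pairs. The counting options that the authors list name none for fragments that cover both genes, so such fragments may be missing from these counts.

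The rows share the sequence features of RNA polymerase III genes. The letters GTTCGANNC of the B box, searched on both strands, occur in 132 of the 171 genes (77.2%), against 18 of 5111 windows of 73 bases from coding genes (0.352%). TATA occurs within 50 bases upstream, on both strands, in 133 (77.8%) against 33.8% of coding genes, and TTTT within 20 bases downstream on the gene's strand in 160 (93.6%) against 25.0%. These are matches of letters and not mapped sites. In the printed sequences the B box letters stand in both proline genes, for example, and not in the cysteine genes.

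Some other structural RNAs were also higher in the slow clones. The 25 mitochondrial tRNA rows, which are not transcribed by RNA polymerase III, were read at 99.8, 304 and 348 CPM, at 3.04 and 3.49 times the wild type. The 7SL RNA srp7 of the signal recognition particle, made by RNA polymerase III, rose from 396 CPM to 1292 and 1435 (log2 fold change 1.78, SE 0.190, edgeR adjusted p = 0.00957, and 0.0204 with RLE size factors, which ends the call). The 64 snoRNA rows were at 1.69 and 1.91 times the wild type. The other RNAs listed here as RNA polymerase III transcripts did not share the size of this difference, and for rrk1 the polymerase was not checked. The 36 rows of 5S ribosomal RNA, a target of the depletion, were at 0.971 times (0.763 to 1.24) and 1.14 times (0.889 to 1.47). Of these rows, 20 had no count. The RNase P RNA rrk1 was at 1.33 and 1.34 times (edgeR adjusted p = 0.0578). The U6 RNA snu6 was below the wild type in slow #1 (0.778 times) and above it in slow #2 (1.71 times). Thus the RNAs of this list ranged from no detectable difference to more than 3 times the wild type (srp7). The tRNAs of the mitochondria were about as much higher as the nuclear ones. Nuclear protein-coding genes of up to 500 bases were at 1.09 and 1.05 times the wild type and all nuclear protein-coding genes at 0.960 and 0.995 times. The mitochondrial tRNAs, srp7 and, to a smaller extent, the snoRNAs and rrk1 were higher in the same libraries as the nuclear tRNAs. The 5S rRNA and coding rows stayed near 1, and the nuclear lncRNA rows were at 1.20 and 1.21 times the wild type. The snu6 RNA was higher only in slow #2, and the 6 snRNA rows as a class were at 1.05 and 2.07 times. The part of any of these RNAs in the tRNA result was not tested.

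**Figure D5:**
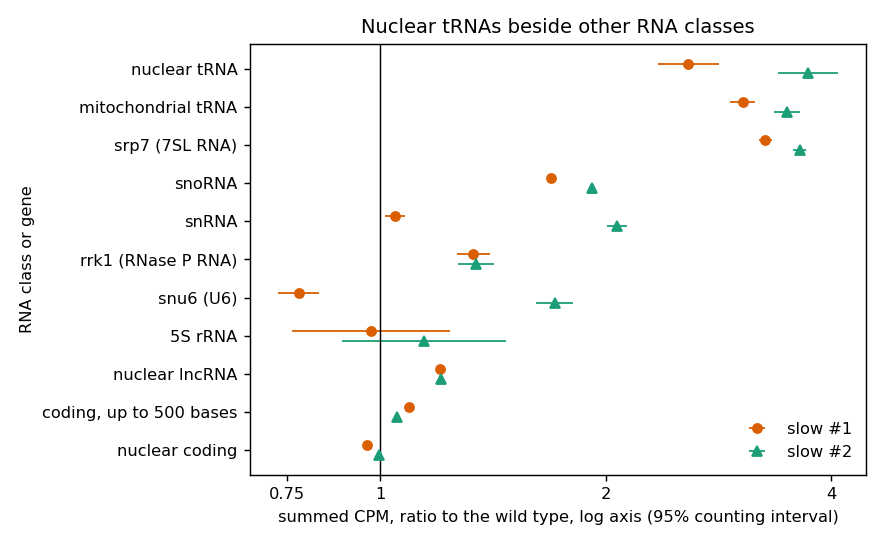
Ratio of the summed CPM of each slow clone to the wild type (x axis, log scale) for nuclear tRNAs and other RNA classes or genes (y axis), with 95% counting intervals, circles for slow #1 and triangles for slow #2. Nuclear tRNAs (2.58 and 3.72) lie near mitochondrial tRNAs (3.04 and 3.49) and srp7 (3.26 and 3.63), while 5S rRNA (0.971 and 1.14) and coding genes lie near 1.

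The mRNAs of proteins that make and use tRNAs are given next. Of 24 genes for RNA polymerase III and its factors, 23 were tested. By edgeR 0 were called in either direction (0.312% of all rows were called higher and 0.390% lower). Before adjustment 3 were higher and 7 lower (p under 0.05, where 17.5% of all rows were higher and 17.9% lower). DESeq2 called 1 higher and 2 lower (4.84% and 3.56% of all rows). In the fit 13 had a positive and 10 a negative log2 fold change. Their median log2 fold change was 0.06, against 0.01 over all rows tested. The polymerase III subunit gene rpc34 was read at 72.3, 37.6 and 38.0 CPM (log2 fold change -0.94, SE 0.120, adjusted p = 0.0114), and rpc19 and rpc40, subunits that RNA polymerase I also uses, were at -0.72 and -0.61. The subunit gene rpc37 was at 0.46 (adjusted p = 0.0519). The gene DESeq2 called higher was rpc10, a polymerase subunit, at 1.00 in edgeR (adjusted p = 0.0574), named after its value was seen.

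The medians of the other protein lists were below that of all rows. All 35 aminoacyl-tRNA synthetase genes, mitochondrial enzymes included, whose products join amino acids to tRNAs, were tested. By edgeR 0 were called (0.312% of all rows were called higher and 0.390% lower). Before adjustment 1 was higher and 17 lower (p under 0.05, where 17.5% of all rows were higher and 17.9% lower). DESeq2 called 0 higher (4.84% of all rows) and 1 lower (3.56%). Their median was -0.31. The methionine enzyme gene rar1 was read at 463, 232 and 215 CPM (log2 fold change -1.05, SE 0.128, edgeR adjusted p = 0.0106), and ism1, prs1 and msf1, for isoleucine, proline and phenylalanine, were at -0.57, -0.59 and -0.55. The list for tRNA processing, splicing and export holds 21 tested genes, of which pop1 and pop2 name ubiquitin ligase adaptors in fission yeast. Of the other 19, 0 were called by edgeR (0.312% of all rows were called higher and 0.390% lower). Before adjustment 2 were higher (17.5% of all rows) and 8 lower (17.9%). DESeq2 called 0 higher (4.84%) and 1 lower (3.56%). The median of the 19 was -0.30. The ligase that joins the exons of spliced tRNAs, trl1, was at -0.67 (adjusted p = 0.0194), tpt1, which acts after it, at -0.64, the exportin los1 at -0.56 and the splicing endonuclease subunit sen2 at -0.60. For tRNA modification, 33 genes were tested and 0 called by edgeR (0.312% of all rows were called higher and 0.390% lower). Before adjustment 1 was higher (17.5% of all rows) and 9 lower (17.9%). DESeq2 called 0 higher (4.84%) and 1 lower (3.56%). The median of the 33 was -0.16. The pseudouridine synthase gene pus1 was read at 148, 73.6 and 78.0 CPM (log2 fold change -0.96, adjusted p = 0.0105), the methyltransferase genes trm11 and trm2 were at -0.60 and -0.55, and the dihydrouridine synthase gene dus2 was at -0.47. Of the 39 rows listed as other RNA polymerase III transcripts 5 were tested, and srp7 was the only one called (0.312% of all rows were called higher).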

How the data were processed

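Total RNA of 1 wild-type and 2 slow rpb1 strains of S. pombe was sequenced after DNase treatment on a column and depletion of ribosomal RNA. The authors trimmed reads with Trimmomatic 0.36, aligned them to ASM294v2 with STAR 2.5.1 and counted read pairs by strand with featureCounts (version not stated in the sources). Their own comparison used DESeq2 1.24. The deposited values are raw, unnormalized counts per gene, beside gene lengths that the authors' counting used. No counting option is named for multi-mapping fragments or for those shared by overlapping genes, so these may be missing.

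Counts were fitted by edgeR 4.0.16 under R 4.3.3 (filterByExpr, minimum 10 per library and 15 in total, TMM factors of 1.01, 1.02 and 0.978, quasi-likelihood test, Benjamini-Hochberg adjustment over all rows tested). Sums by amino acid, by anticodon and over all rows replaced the tRNA rows in separate fits. DESeq2 1.42.0 was an alternative, run on all rows with any count. The fit was tested on simulated data. Ratios of clones carry exact 95% binomial intervals and CPM sums exact Poisson intervals, for counting error only. Anticodons were read from the middle of a 7-base loop between the sides of a 5-base stem. Only places whose anticodon decodes the amino acid in the identifier were searched, and the best-paired place was taken. The stem was not required to pair in full, and SPBTRNALYS.07 and SPBTRNASER.06 had only 2 pairs. Introns, copies and motifs came from RefSeq ASM294v3, and 6844 of the 7049 identifiers matched it.

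Named are each called tRNA gene, the 20 with the highest mean CPM, each amino acid code with sums of 10 or more, and up to 4 members of each list, called ones first and then by p. Genes named for low, split or contrasting values, the families and the pairs were chosen after their values were seen. Members and lists were chosen with earlier results of these data known. The list of synthetases, written as products without the word mitochondrial, matched only 4 products because of spelling, was widened to 35 and includes mitochondrial enzymes; products with methionyl were taken out of the modification list, pop1 and pop2 name other proteins, and pop3 and xpot were not matched.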

Additional observations from a re-analysis of the deposited data

How the results depend on the processing

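The total and the amino acid and anticodon sums of 10 or more in every library kept their direction under every alternative run. With library totals alone in place of TMM, 10 genes, 7 amino acid sums and 11 anticodon sums passed an adjusted p of 0.01 in edgeR, and the sum of all nuclear tRNA counts was at 1.64 (log2 fold change, adjusted p = 5.01e-05). Of all rows, 5.91%, 5.67% and 6.09% of these tables were then called higher, against 0.312%, 0.172% and 0.234% with TMM. Scaled to nuclear protein-coding counts the numbers were 10, 7 and 11, with the sum at 1.68 (6.49e-05) and 6.37%, 6.11% and 6.62% of all rows called higher. These scalings moved the fold changes by at most 0.0386 (log2), and the cause of the smaller p was not tested. DESeq2 called 4, 5 and 3, an adjusted p under 0.05 gave 12, 7 and 11 (8 of these 11 among the 18 sums of 10 or more), and without a filter on low counts 1 amino acid sum (proline) was called (1.01% of all rows higher). RLE size factors, leaving out rows that overlap on the same strand, and leaving out structural and mitochondrial RNAs, which was chosen after the data were seen, gave 0, 0 and 0, with the sum at 1.65, 1.66 and 1.66. Under RLE the phenylalanine and serine sums were no longer under 0.05 (adjusted p = 0.0532 and 0.0546). Sums of 30 or more in every library left 7 amino acid sums, 0 of them called. Without slow replicate 1 or without slow replicate 2 the sum was at 1.89 and 1.36; these have no residual degrees of freedom, so counts of calls could not be made. Single genes, and the isoleucine UAU sum that SPATRNAILE.02 makes up alone, turned where the clones split. Without slow replicate 1 and without slow replicate 2, SPATRNAILE.02 was at 0.27 and -0.66, and SPATRNASER.02 at 1.44 and -0.22. For snu6 the values were 0.77 and -0.36. No paired analysis was possible because the wild type is 1 library without a replicate number. Depth limits single genes most: 29 of the 50 tested had fewer than 10 wild-type counts.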
